A study of Mus musculus with 15 samples.

Results

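Interferon-stimulated genes were examined as a set of 39 named genes in mouse fibroblasts. Members were found by their symbol in the scanner files, and 37 of the 39 had a probe, 31 under the symbol itself and 6 through an accession or an older name (Isg15, Irf9, Dhx58, Gbp3, Eif2ak2 and Parp14). Xaf1 and Dtx3l were not found in this way and are not analysed here. All 37 were among the 31262 genes tested, of 33556 names on the array. The study measured RNA of 5 fibroblast sources on 15 dual-colour Agilent arrays, 3 arrays per source. NSF and TAF-tib6 carry the label sensitive, and TAF-el4, TAF-tib42 and TAF-tib48 carry the label resistant. The series title ties the work to tumors refractory to anti-VEGF treatment, where VEGF is the main growth factor of new blood vessels. Strain, age, culture, drug exposure and the meaning of the source names are not given in the labels, and no label tells whether a source's 3 arrays hold RNA of different cultures or animals. The p-values therefore rest on array-to-array spread, part or all of which may be technical.

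Type I interferons bind a receptor on the cell surface whose kinases, JAK1 and TYK2, switch on transcription factors in the cytoplasm. A complex that holds STAT2 and IRF9 then binds the interferon-stimulated response element in promoters, whereas interferon gamma acts through the gamma-activated sequence. The induced genes encode sensors of foreign RNA and DNA, enzymes that degrade or block viral RNA, membrane proteins that stop virus entry or release, and the factors that carry and later dampen the signal. Fibroblasts both secrete type I interferon and respond to it.

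Each array set Cy5-labelled fibroblast RNA against one Cy3-labelled commercial mouse reference RNA, so a level here is a log2 ratio to that reference, and a difference is a log2 difference between the mean levels of 2 sources. The probe with the highest mean intensity stood for a gene. Median Cy5 intensity per array ran from 174.7 to 285.9 and the median local background from 52 to 56. Precision is limited by the number of arrays. The median SD between arrays of a source was 0.123 for the 37 members and 0.063 over all genes tested. The slides fall into 3 runs of consecutive slide numbers. NSF shares run 1 with TAF-el4 replicates 1 and 2, TAF-tib42 shares run 2 with TAF-el4 replicate 3 and TAF-tib48 replicate 1, and TAF-tib6 shares run 3 with TAF-tib48 replicates 2 and 3. TAF-tib42 thus shares no run with NSF or TAF-tib6. Arrays of 1 source differed across many members at once: TAF-el4 replicate 3 was the lowest of its source for 30 of 37 members and replicate 1 the highest for 29, TAF-tib48 replicate 3 was the highest for 29 and replicate 2 the lowest for 24, and NSF replicate 1 was the highest for 22. Oasl2 and Eif2ak2 on TAF-tib42 replicate 1 and Parp9 on TAF-tib6 replicate 3 had no value because the spot carried an outlier flag.

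Promoter sequence shows what many of these genes have in common apart from their levels. In RefSeq windows of assembly GRCm38.p6 that run from 250 bases before to 50 after a gene's start, 29 of the 39 listed genes had a window. The core of the interferon-stimulated response element, which is GAAA, any 2 bases and GAAA on either strand, stood in 17 of the 29 (58.6%), against 3.99% of 27025 genes with a window. The longer form, which adds CT to the core, stood in 10 of them (34.5%) against 0.303% of genes, and the gamma-activated sequence TTCNNNGAA in 9 (31.0%) against 9.55%. A longer-form match is always also a core match, and a gene with more than 1 window counts if any holds the match. The 150 bases before the start are shown, in the direction of the gene, for 4 members that rose in TAF-tib42 and hold the core there, with the core matches of either strand in capitals and overlapping matches run together:
Isg15: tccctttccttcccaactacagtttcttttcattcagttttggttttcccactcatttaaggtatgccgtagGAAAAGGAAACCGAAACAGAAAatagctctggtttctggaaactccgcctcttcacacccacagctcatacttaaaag
Ifit1: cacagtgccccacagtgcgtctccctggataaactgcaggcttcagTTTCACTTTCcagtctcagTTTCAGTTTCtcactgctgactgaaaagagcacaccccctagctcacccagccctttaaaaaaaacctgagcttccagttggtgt
Bst2: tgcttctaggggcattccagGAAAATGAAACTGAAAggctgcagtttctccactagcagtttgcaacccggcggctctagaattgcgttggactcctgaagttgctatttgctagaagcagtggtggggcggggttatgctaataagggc
Gbp3: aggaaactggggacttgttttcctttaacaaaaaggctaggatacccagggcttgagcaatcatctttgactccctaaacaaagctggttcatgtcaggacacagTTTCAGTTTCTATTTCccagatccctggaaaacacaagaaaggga
These lie at chr4:156200819-156200968 (minus strand), chr19:34640739-34640888 (plus strand), chr8:71537473-71537622 (minus strand) and chr3:142559894-142560043 (plus strand, the one of its 2 windows that holds the core). In Isg15 3 overlapping cores lie in a row, and Ifit1 has 2 separate cores on the opposite strand. The other 3 promoters are shown for contrast. Gbp2 and Rsad2 hold the core, and their brightest probes were not called in TAF-tib42 against TAF-tib6 or NSF. A dimmer Rsad2 probe was called higher against TAF-tib6 (0.28) and NSF (0.24). Oasl2 holds no core in this window and was among the members with the largest rise:
Gbp2: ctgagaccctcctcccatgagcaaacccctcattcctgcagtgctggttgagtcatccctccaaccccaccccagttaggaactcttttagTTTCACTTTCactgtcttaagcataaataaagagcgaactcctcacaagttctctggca
Rsad2: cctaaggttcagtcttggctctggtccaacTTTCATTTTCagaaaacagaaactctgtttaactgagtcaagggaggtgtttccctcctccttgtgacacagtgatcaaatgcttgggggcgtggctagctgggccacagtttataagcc
Oasl2: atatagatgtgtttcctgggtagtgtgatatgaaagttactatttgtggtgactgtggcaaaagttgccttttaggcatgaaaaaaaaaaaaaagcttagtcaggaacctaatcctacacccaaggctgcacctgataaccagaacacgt
These lie at chr3:142620513-142620662 (plus strand), chr12:26456453-26456602 (minus strand) and chr5:114896784-114896933 (plus strand). A match describes these letters and is not evidence of binding.

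In TAF-tib42 most interferon-stimulated genes were higher than in every other source. Against TAF-tib6, 29 of the 37 rose and 0 fell (limma, adjusted p under 0.05 over all genes tested), where 11.8% of all genes tested were called higher and 13.1% lower. The corresponding counts were 28 rose and 0 fell against NSF (10.8% of all genes called higher, 13.2% lower), 31 and 0 against TAF-el4 (9.67% higher, 13.3% lower) and 29 and 0 against TAF-tib48 (6.63% higher, 7.65% lower). At an unadjusted p under 0.05, 30 to 32 members were higher and 0 lower in each of the 4. Of all 31262 genes, 11009, 10786, 10377 and 7857 passed that threshold in either direction against TAF-tib6, NSF, TAF-el4 and TAF-tib48. The median difference over the members was 0.86, 0.81, 1.04 and 0.88 in that order, and the median over all genes tested lay between -0.01 and 0.01 in each. At least 2-fold rises were called for 16, 13, 19 and 15 members, against 0.265%, 0.15%, 0.361% and 0.329% of all genes. These 4 comparisons share the TAF-tib42 arrays and are not independent. All 3 TAF-tib42 arrays lay above the 12 other arrays for 27 of 37 members, a pattern that 3.15% of all genes showed. Within slide run 2 alone, 32 members were called higher and 0 lower against the single TAF-el4 array (4.86% of all genes called higher), and 30 higher and 0 lower against the single TAF-tib48 array (4.05%). In these fits the spread comes from the 3 TAF-tib42 arrays only, and the single array is assumed to vary like them.

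**Figure D1:**
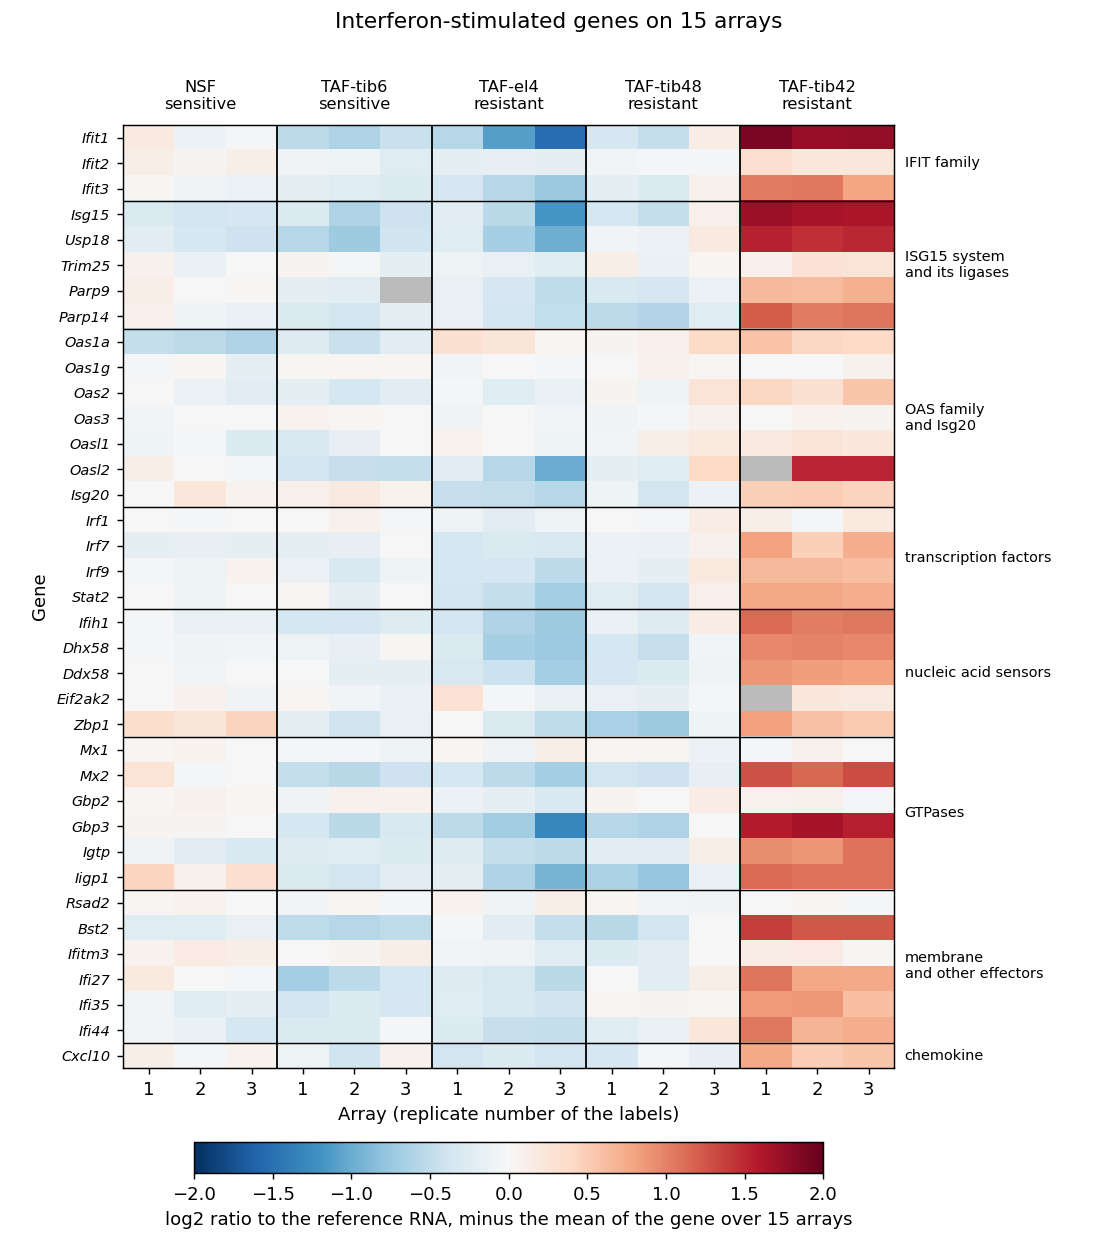
Levels of the 37 genes on the 15 arrays as a colour scale of the log2 ratio to the reference RNA minus each gene's mean over the arrays, with rows grouped by role, columns by source and the 3 missing spots in grey. The TAF-tib42 columns are above the row mean for most rows, and TAF-el4 replicate 3 is the lowest of its source for 30 of 37 genes.

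**Figure D2:**
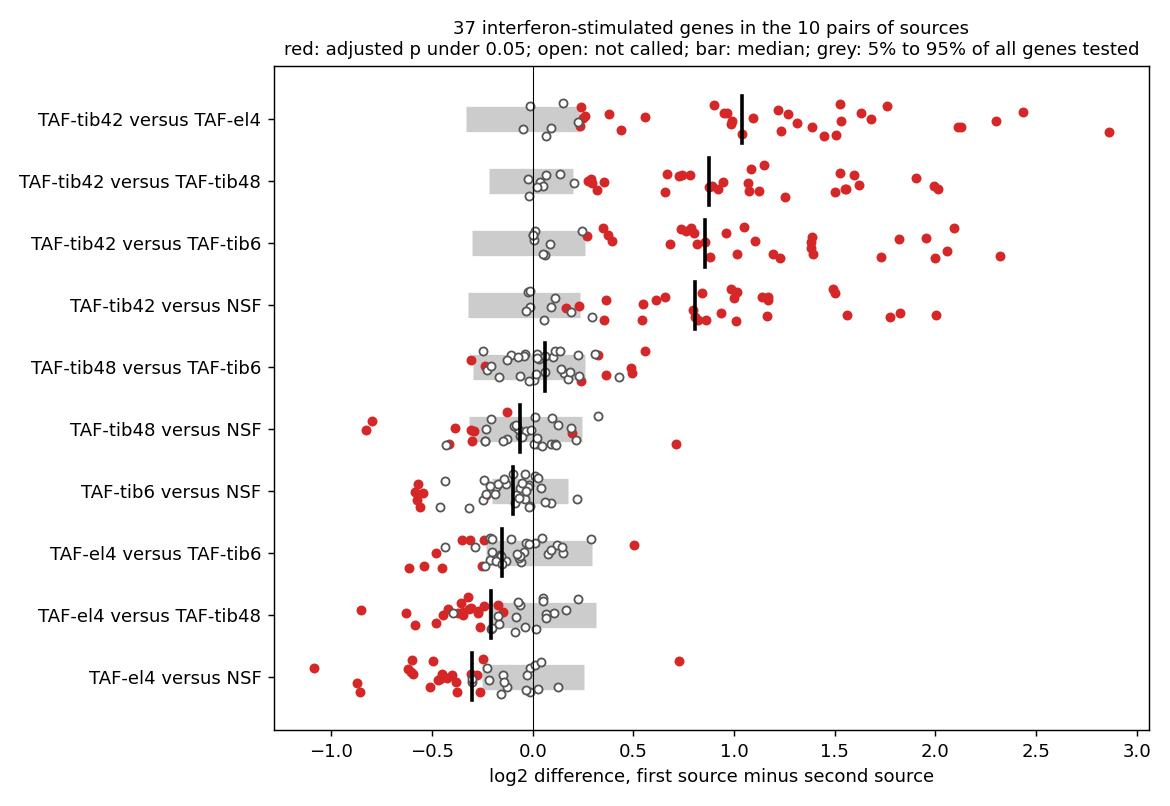
Log2 differences of the 37 genes (points) in the 10 pairs of sources, first source minus second, with the median as a bar and the central range of all genes tested in grey. The medians are 0.81 to 1.04 in the 4 pairs with TAF-tib42 and between -0.30 and 0.06 in the other pairs.

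The IFIT proteins bind viral RNA and block its translation. Ifit1 had the largest difference of all members against TAF-tib6, TAF-el4 and TAF-tib48, and Isg15 the largest against NSF. The Ifit1 level was 2.69, 2.55 and 2.57 on the TAF-tib42 arrays, and 1.0, 0.70 and 0.79 in NSF. It was 0.29, 0.19 and 0.36 in TAF-tib6, 0.24, -0.30 and -0.71 in TAF-el4, and 0.48, 0.34 and 0.96 in TAF-tib48. The lowest TAF-tib42 array lay far above the highest of the other 12. Ifit1 was 5.0-fold higher than in TAF-tib6 (log2 2.32, SE 0.171, adjusted p = 8.4e-09) and 7.28-fold higher than in TAF-el4 (log2 2.86). Ifit3, whose protein partners IFIT1, rose by 1.2 (SE 0.10) against TAF-tib6 and by 1.01 to 1.51 against the other sources; its close copy Ifit3b could share its probe. Ifit2 changed far less, by 0.39 against TAF-tib6 and 0.16 against NSF, and its second probe gave 0.05 (SE 0.05) against TAF-tib6 without a call. The Ifit2 call against NSF was also lost without NSF replicate 2 (0.15) or without TAF-tib42 replicate 1 (0.13).

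ISG15 is a ubiquitin-like protein that is attached to other proteins and also secreted, and USP18 is the protease that removes it and a brake on the type I receptor. The Isg15 level was 2.79, 2.73 and 2.71 in TAF-tib42, against 0.79, 0.70 and 0.74 in NSF and 0.81, 0.48 and 0.67 in TAF-tib6. In TAF-el4 it was 0.87, 0.55 and -0.10, and in TAF-tib48 0.72, 0.61 and 1.18. The other 4 sources overlapped with each other and none reached TAF-tib42. Isg15 was 4.26-fold higher than in TAF-tib6 (log2 2.09, SE 0.169, adjusted p = 3.0e-08) and 3.75-fold higher than in TAF-tib48. Usp18 stood at 0.54, 0.45 and 0.51 in TAF-tib42, between -1.41 and -1.21 in NSF, between -1.71 and -1.40 in TAF-tib6, between -1.97 and -1.24 in TAF-el4 and between -1.11 and -0.83 in TAF-tib48. It was the one member of this group that also rose in TAF-tib48 against TAF-tib6 (0.56, SE 0.13, adjusted p = 0.0029). The ADP-ribosyltransferases Parp9 and Parp14 rose by 0.86 and 1.39 against TAF-tib6. Trim25, a ubiquitin ligase that activates the RNA sensor RIG-I and also conjugates ISG15, rose by only 0.27 (SE 0.08, adjusted p = 0.014) there, and the call was lost without TAF-tib42 replicate 2 (0.23) or 3 (0.25), without TAF-tib6 replicate 3 (0.20), and with the slide run as a block (0.10).

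**Figure D3:**
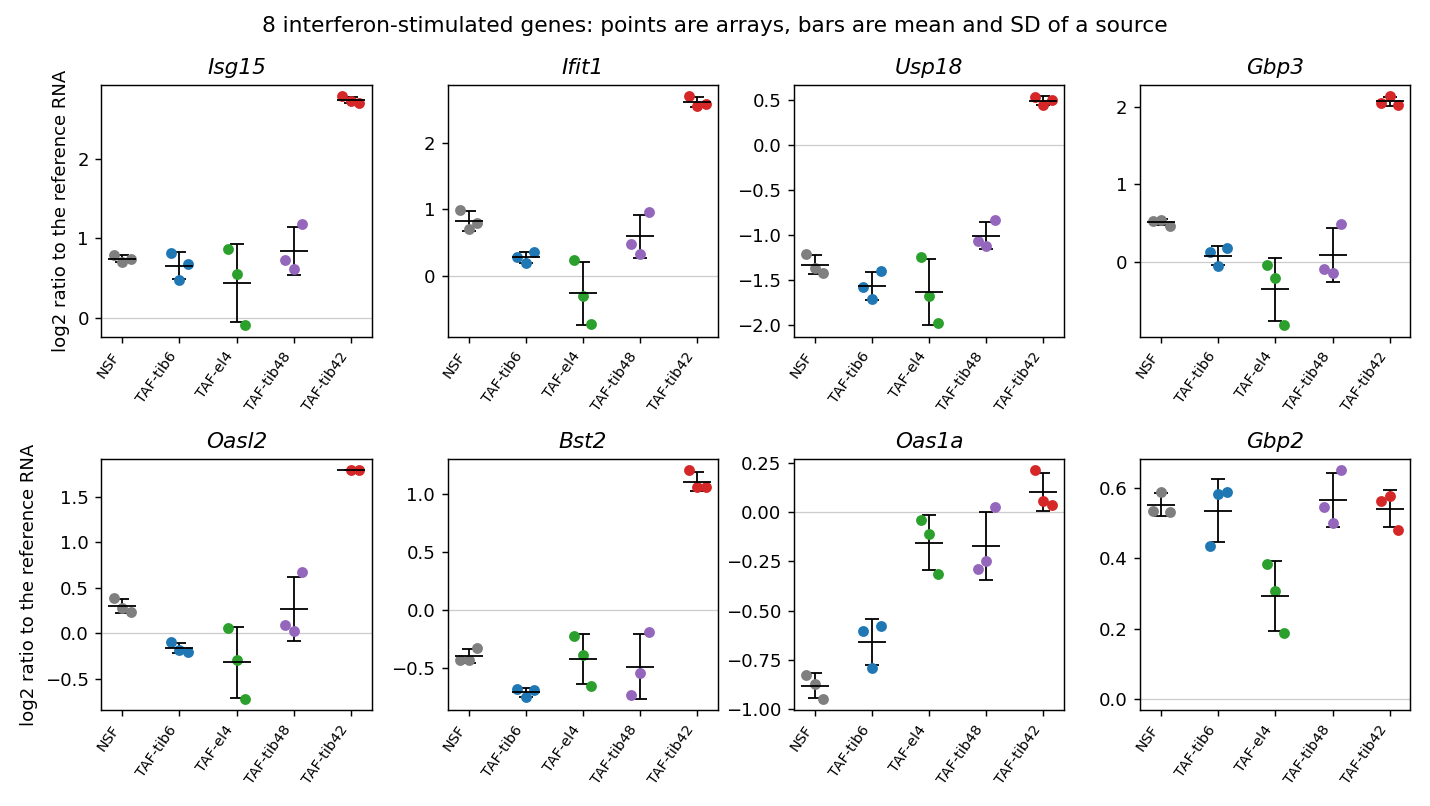
Log2 ratios to the reference RNA of 8 members in the 5 sources, with points for arrays and bars for the mean and SD of a source (n = 3, and n = 2 for Oasl2 in TAF-tib42). TAF-tib42 stands above all other arrays in 7 of the 8 panels, and Gbp2 is lowest in TAF-el4 with the other 4 sources overlapping.

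Oligoadenylate synthetases make a messenger that switches on RNase L, and the OAS-like proteins are their relatives. Of the 6 Oas and Oasl members and the exonuclease gene Isg20, 5 rose against TAF-tib6 and 0 fell. Oasl2 was 1.79 on both TAF-tib42 arrays with a value, against 0.38, 0.27 and 0.24 in NSF, between -0.21 and -0.10 in TAF-tib6, between -0.72 and 0.06 in TAF-el4 and between 0.03 and 0.67 in TAF-tib48. It was 3.88-fold higher than in TAF-tib6 (log2 1.96, SE 0.174). Oas2 rose by 0.68, Oasl1 by 0.38 and Isg20 by 0.35 against TAF-tib6, although with the slide run as a block the Isg20 difference was 0.18 (adjusted p = 0.388). The second Oas2 probe gave 0.30 (SE 0.06) there. Oas3 differed by 0.01 (SE 0.04) and Oas1g by 0.00 (SE 0.05), neither called. In the Cy5 channel alone the Oas3 difference was -0.36 (adjusted p = 0.0498), whereas its second probe gave 0.15 (SE 0.06, not called) and was called higher against NSF (0.25) and TAF-el4 (0.17). The Oas1g probe was dim, with a Cy5 signal 23.6 to 57.7 above background, and Oas1a and Oas1g are close copies whose probes could take each other's RNA.

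Oas1a differed in its pattern from most members. Its level was -0.82, -0.87 and -0.95 in NSF and -0.60, -0.79 and -0.58 in TAF-tib6. The resistant sources were all higher, at -0.04, -0.11 and -0.31 in TAF-el4, -0.29, -0.25 and 0.03 in TAF-tib48, and 0.21, 0.06 and 0.04 in TAF-tib42. No array of a resistant source overlapped with any of the sensitive sources. By source means, all resistant sources lay above all sensitive ones for 2 of the 37 members and 4257 of 31262 genes tested. They lay below for 0 members and 4066 genes, so such an order is common on these arrays. Against TAF-tib6 the difference was 0.50 in TAF-el4, 0.49 in TAF-tib48 and 0.76 in TAF-tib42 (SE 0.08 each), and each was called. It was the only member that rose in TAF-el4 against NSF (0.73, SE 0.08, adjusted p = 3.5e-06) and against TAF-tib6. The smaller gaps of TAF-tib42 over TAF-el4 (0.26) and TAF-tib48 (0.28) were less firm. The first was lost without TAF-tib42 replicate 1 (0.20) or TAF-el4 replicate 2 (0.28) or 3 (0.18), and the second without TAF-tib42 replicate 1 (0.22) or 2 (0.30) or TAF-tib48 replicate 1 (0.22) or 2 (0.24).

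Among the transcription factors, Stat2 and Irf9 encode parts of the complex that type I interferon activates, Irf7 amplifies the making of interferon alpha, and Irf1 is an early factor of the gamma response. Stat2 was 1.56, 1.56 and 1.52 in TAF-tib42, against 0.78, 0.70 and 0.78 in NSF, 0.80, 0.61 and 0.79 in TAF-tib6, 0.42, 0.31 and 0.12 in TAF-el4 and 0.54, 0.40 and 0.88 in TAF-tib48. It rose by 0.81 (SE 0.0934) against TAF-tib6 and by 1.27 against TAF-el4. Irf9 rose by 0.80 and Irf7 by 0.78 against TAF-tib6. A second, dimmer Irf9 probe gave 0.09 (SE 0.06), which was not called. Irf1 differed from TAF-tib6 by 0.09 (SE 0.06, adjusted p = 0.33) and was called higher only against TAF-el4 (0.24).

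Of the 5 sensors of viral nucleic acid 4 rose against TAF-tib6. Ifih1 (MDA5), which senses long double-stranded RNA, was 1.93, 1.82 and 1.87 in TAF-tib42 and between 0.10 and 0.95 on the 12 other arrays. Its difference from TAF-tib6 was 1.38 (SE 0.0848, adjusted p = 6.7e-10). Its second probe gave a smaller rise of 0.52 (SE 0.07). Dhx58 (LGP2) rose by 1.05 and Ddx58 (RIG-I), the sensor of 5'-triphosphate RNA, by 0.96 in the same comparison, and the other 2 Ddx58 probes rose by 0.45 and 0.29. Zbp1, a sensor of Z-form nucleic acid that can start necroptosis, rose by 0.88 against TAF-tib6 but differed from NSF by 0.29 (SE 0.14, adjusted p = 0.14). NSF was the second highest source for Zbp1, at 1.01, 0.90 and 1.1, with TAF-tib42 at 1.48, 1.24 and 1.17. Eif2ak2, the kinase PKR that halts translation, gave 0.24 (SE 0.09, adjusted p = 0.06) against TAF-tib6, and its call against TAF-tib48 (0.32) was lost without TAF-tib42 replicate 2 (0.30) or 3 (0.33) and without TAF-tib48 replicate 1 (0.30) or 2 (0.29).

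Interferon-induced GTPases act on virus particles and on the vacuoles of intracellular parasites. Gbp3 stood at 2.05, 2.14 and 2.03 in TAF-tib42, 0.53, 0.54 and 0.47 in NSF, 0.13, -0.06 and 0.17 in TAF-tib6, -0.04, -0.22 and -0.82 in TAF-el4, and -0.09, -0.14 and 0.49 in TAF-tib48. It was 3.99-fold higher than in TAF-tib6 (log2 2.0, SE 0.157); the files give its probe the name Gbp4, and close copies of Gbp genes could share it. Mx2 rose by 1.73, Iigp1 by 1.39 and Igtp by 1.23 against TAF-tib6. Of the 6 members of this group, Mx1 and Gbp2 were not called there. Mx1 lay between -0.07 and 0.17 on all 15 arrays, with no call in any pair of sources, and its second probe differed by 0.00 (SE 0.05) between TAF-tib42 and TAF-tib6. Gbp2 was 0.56, 0.58 and 0.48 in TAF-tib42 and 0.43, 0.58 and 0.59 in TAF-tib6, a difference of 0.01 (SE 0.06), although its Cy5 signal was well measured, at 756 to 2419 above background. In the Cy5 channel alone, without the reference, Gbp2 was called higher than in NSF (0.37, adjusted p = 0.0025).

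Of the membrane and other effectors, Bst2 (tetherin), which holds budding virus on the cell, changed most. It was 1.2, 1.06 and 1.06 in TAF-tib42, between -0.43 and -0.33 in NSF, between -0.76 and -0.69 in TAF-tib6, between -0.66 and -0.22 in TAF-el4 and between -0.74 and -0.19 in TAF-tib48. The difference from TAF-tib6 was 1.82 (SE 0.108, adjusted p = 4.3e-10), a 3.53-fold rise. The probe that the files name Ifi27 rose by 1.38 and its second probe by 0.87; the reference table gives its accession the symbol Ifi27l2a. Another probe, to which that table gives the symbol Ifi27, differed from TAF-tib6 by 0.02 (SE 0.05). Ifi35 rose by 1.11 and Ifi44 by 1.02 against TAF-tib6. Rsad2 (viperin) and Ifitm3, which blocks virus entry, differed from TAF-tib6 by 0.00 (SE 0.05) and 0.05 (SE 0.07). The 3 Rsad2 probes disagreed, since the next in brightness gave 0.28 (SE 0.07, adjusted p = 0.0051) and the dimmest 0.09 (SE 0.04). Cxcl10, the chemokine that draws activated T cells, was -0.30, -0.57 and -0.51 in TAF-tib42 and between -1.46 and -0.94 on the other arrays, a rise of 0.74 (SE 0.0973) against TAF-tib6.

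There were 12 members with more than 1 probe, and the 37 had 51 probes in all. Of the 14 dimmer probes, 9 belonged to members called against TAF-tib6 by the brightest probe, and 7 of these 9 were also called in the same direction, 8 of them with a smaller difference. The exceptions were those of Ifit2 and Irf9 given above.

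TAF-el4 had the lowest levels. Its source mean was the lowest for 24 of the 37 members, where it was the lowest for 16.7% of all genes. Against NSF, 20 members fell and 1 rose, with 8.57% of all genes called lower and 8.76% higher, and the median difference was -0.30. Ifit1 fell by 1.09 (SE 0.171), Gbp3 by 0.87, Iigp1 by 0.86, Oasl2 by 0.62, Isg20 by 0.60 and Mx2 by 0.59. All 3 TAF-el4 arrays lay below the 12 others for 7 members (Ifit3, Irf1, Irf7, Irf9, Ifih1, Isg20 and Gbp2), a pattern shown by 2.66% of all genes. Isg20 was -0.48, -0.50 and -0.59 there, against -0.02, 0.21 and 0.04 in NSF. Within slide run 1, which holds 2 TAF-el4 arrays and the 3 NSF arrays and leaves out TAF-el4 replicate 3, 19 members fell and 1 rose (8.26% of all genes called lower). Of the 14 fibroblast markers, 7 fell and 1 rose in TAF-el4 against NSF, of 14 macrophage and dendritic cell markers 2 fell and 1 rose, and of 9 endothelial and 8 epithelial markers 1 each fell; their part in the result was not tested. Against TAF-tib48, 19 fell and 0 rose (9.73% of all genes called lower, 14.1% higher, and 0 members higher at an unadjusted p under 0.05 in limma), but the count of calls was 10 without TAF-el4 replicate 3 and 9 without TAF-tib48 replicate 3. Against TAF-tib6, 8 fell and 1 rose (9.23% called lower, 11.4% higher), and 1 call was left with the slide run as a block.

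The other sources differed in fewer members. In TAF-tib6 against NSF, 6 members fell and 0 rose in limma (6.72% of all genes called lower, 4.63% higher, and 1 member higher at an unadjusted p under 0.05), namely Ifit1 (-0.55), Ifit2 (-0.23), Mx2 (-0.56), Iigp1 (-0.57), Zbp1 (-0.59) and Ifi27 (-0.57). In TAF-tib48 against NSF, 8 fell and 2 rose (14.5% called lower, 11.7% higher), and Zbp1 (-0.83) and Iigp1 (-0.80) fell most while Oas1a rose by 0.71. TAF-tib48 against TAF-tib6 gave 6 higher and 2 lower (11.5% of all genes called higher, 13.2% lower). With median centring in place of loess the calls in TAF-tib6 against NSF numbered 14. With the slide run as a block they numbered 0, and there were 2 in TAF-tib48 against NSF, 2 pairs that share no run, so slide run and source cannot be fully told apart there.

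Ordered by source mean, TAF-tib42 was the highest for 32 of 37 members, where it was the highest for 19.6% of all genes. The sources in places 1 and 2 of that order differed (adjusted p under 0.05) for 26 members, those in places 2 and 3 for 5, in places 3 and 4 for 3 and in places 4 and 5 for 8. Over all genes these steps differed for 10.1%, 5.66%, 5.73% and 7.01%. For most members, neighbours below the highest source did not pass the test. The 5 members not highest in TAF-tib42 were Mx1, Oas1g, Rsad2, Gbp2 and Ifitm3.

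Between the labels resistant and sensitive, with the source as the unit (3 against 2 source means), 0 of the 37 members passed the test in limma, where 1 of 31262 genes did (0.0032%). At an unadjusted p under 0.05 there were 2 members, Oas1a with 0.70 (SE 0.114, adjusted p = 0.257) and Oasl1 with 0.24 (SE 0.07, adjusted p = 0.43). Of all genes tested, 2882 of 31262 passed that unadjusted threshold, a larger share than among the members. With all 15 arrays and the source as a random block in limma, Oas1a alone was called (adjusted p = 0.0012). That fit counts single arrays, whereas the label varies only between sources, so its p-value may be too small. It does not replace the test on source means, where Oas1a was not called. For Isg15 the difference was 0.64 (SE 0.70), since TAF-tib42 was high while TAF-el4 and TAF-tib48 lay near the sensitive sources.

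The rest of the interferon pathway was read from lists that were chosen with results of these data known. In TAF-tib42 against TAF-tib6, 11.8% of all genes tested were called higher and 13.1% lower. At an unadjusted p under 0.05, 11009 of 31262 genes passed in either direction. Of 12 interferon ligand genes tested, 0 were called in TAF-tib42 against TAF-tib6 by limma (2 at an unadjusted p under 0.05, both higher), and the median difference was 0.03. The probe of Ifnb1, the interferon that fibroblasts make, was dim on all arrays, with a Cy5 signal 30.6 to 57.0 above background, and several Ifna genes are near-identical copies whose probes cannot be told apart. Of the receptor and JAK-STAT genes, Il10rb, a receptor chain that interferon lambda uses, rose by 0.28 against TAF-tib6, and it fell by 0.20 against NSF. The kinase gene Jak1 fell by 0.44 and Stat3 by 0.35 against TAF-tib6, but neither differed by more than 0.03 from TAF-tib48. Of 15 genes of the sensing steps before interferon, 1 rose and 3 fell against TAF-tib6, counts near the shares over all genes. The signalling ligase gene Traf6 rose by 0.24. The transcription factor gene Irf3 fell by 0.18, the kinase gene Ikbke by 0.15 and the adaptor gene Ticam1 by 0.11. Among 12 negative regulators 4 rose and 2 fell. Samhd1 (0.76, SE 0.0613), a dNTP hydrolase, and the RNA-editing enzyme gene Adar (0.47) rose. So did the DNA exonuclease gene Trex1 (0.43) and Rnaseh2b (0.40), a subunit of RNase H2. The 2 that fell were Pias1 (-0.21) and Rnaseh2a (-0.14), another subunit of RNase H2, so the subunits of that enzyme differed in direction. Adar, Samhd1 and Trex1 were called higher in TAF-tib42 against all 4 sources, and Rnaseh2b only against TAF-tib6 and NSF.

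Other interferon-induced genes outside the 37 were called higher in part. Of 50 tested, 27 rose and 4 fell against TAF-tib6, 26 and 2 against NSF, 31 and 2 against TAF-el4, and 31 and 1 against TAF-tib48. Of all genes tested, 11.8%, 10.8%, 9.67% and 6.63% were called higher in that order, and 13.1%, 13.2%, 13.3% and 7.65% lower. Trim30a, a regulator of inflammatory signalling, was 1.98 to 2.14 in TAF-tib42 and -0.04 to 0.77 elsewhere, a rise of 1.86 (SE 0.103) against TAF-tib6. Rtp4 rose by 1.57, the GTPase gene Irgm2 by 1.5 and the STAT-interacting gene Nmi by 1.36. Nmi stood at 0.67 to 0.75 in TAF-tib42 and at -0.72 to -0.27 on the 12 other arrays, with no overlap.

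**Figure D4:**
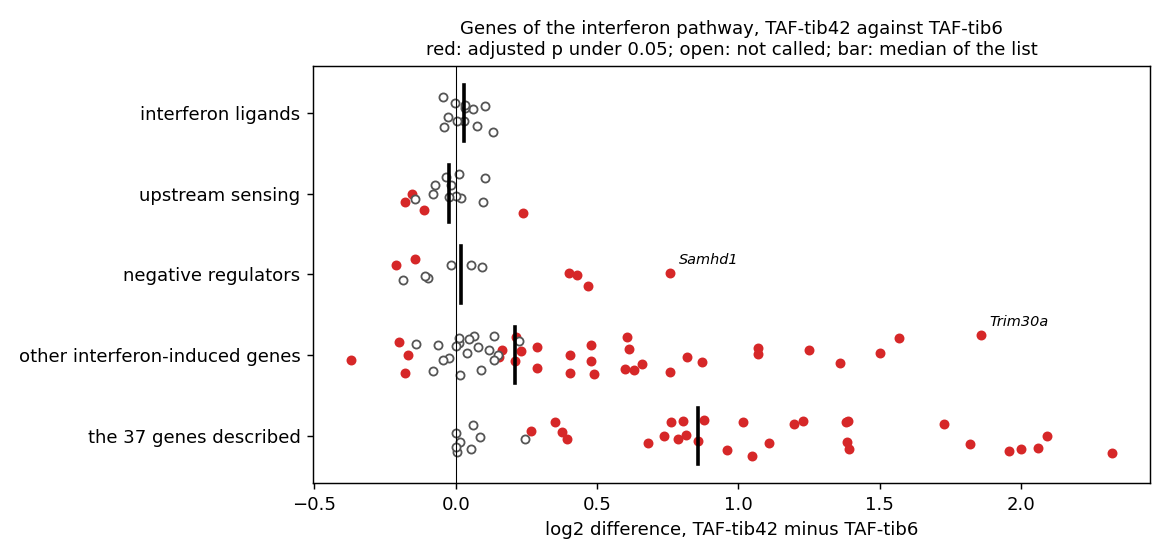
Log2 differences of TAF-tib42 minus TAF-tib6 (points are genes) for 4 lists of the interferon pathway and for the 37 genes described, with called genes in red and the median of each list as a bar. The ligands have 0 called genes and a median of 0.03, and the 37 genes have a median of 0.86.

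Set beside the promoter motif, 27 of the 37 members had both a window and a probe. Against TAF-tib6, 11 of the 17 with the core rose (median 0.81), and 9 of the 10 without it rose (median 0.59). The counts were 11 of 17 with the core and 9 of 10 without it against NSF (medians 0.86 and 0.51), 13 of 17 and 9 of 10 against TAF-el4 (1.27 and 0.98), and 13 of 17 and 7 of 10 against TAF-tib48 (0.94 and 0.66). These are descriptions, and no difference between the sets was tested. Members with the core that were not called against TAF-tib6 were Gbp2, Rsad2, Oas1g, Oas3, Ifitm3 and Eif2ak2.

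Markers of other cell types were read on the same arrays, because bulk RNA cannot tell fewer cells of a type from less RNA per cell. All 14 fibroblast markers were well above background in every source, as were all 14 macrophage and dendritic cell markers and all 11 lymphocyte markers, so this measure does not separate the cell types. The summed Cy5 level of the fibroblast markers was 212271 to 289729 over all arrays. Col1a1, Col1a2 and Vim each lay between 65223 and 65255 above background on every array, at the top of the scanner's range. The summed levels, here and for the other cell types, are on another scale than these single-gene signals above background. Markers at the top of the range cannot show a further rise, so no difference in fibroblast content is read from the sum. Against TAF-tib6, 3 of the 14 fibroblast markers rose and 5 fell in TAF-tib42, and the matrix gene Dcn (decorin) fell by 1.51. Of 14 macrophage and dendritic cell markers, 5 rose and 1 fell in TAF-tib42 against TAF-tib6 (Csf1r by 0.30, Aif1 by 0.33, Cd14 by 0.31, Adgre1 by 0.21 and Fcgr3 by 0.12 rose, and Lyz2 fell by 0.68), and their median difference was 0.08. Their summed Cy5 level was 2863 to 2923 in TAF-tib42, 2825 to 2885 in TAF-el4, 2764 to 2788 in NSF, 2611 to 2706 in TAF-tib48 and 2560 to 2679 in TAF-tib6. The defining leukocyte marker Ptprc had a Cy5 signal 38.1 to 54.7 above background over all arrays, and the macrophage receptor Mrc1 one of 32.2 to 61.0. Other markers of the same list were brighter, among them Csf1r (411 to 1019), Adgre1 (366 to 958), Lyz2 (247 to 937) and Cd14 (286 to 610). The fibroblast marker Fap was as dim as Ptprc (29.4 to 54.8), so a dim probe does not show that a cell type was absent. Of 11 lymphocyte markers 0 were called in TAF-tib42 against TAF-tib6 by limma (1 at an unadjusted p under 0.05, lower), and their summed level was 3732 to 3883 against 3867 to 3991. Of 9 endothelial markers 3 fell in TAF-tib42 against TAF-tib6, 3 against NSF and 4 against TAF-tib48, and their summed level was 1244 to 1322 in TAF-tib42, 1961 to 2155 in TAF-tib48 and 1224 to 1444 in the other sources. Of 8 epithelial markers 1 rose against each of TAF-tib6, NSF and TAF-el4, and 1 fell against TAF-tib48. Beside these marker counts, 11.8% of all genes tested were called higher and 13.1% lower in TAF-tib42 against TAF-tib6. In that pair 11009 of 31262 genes passed an unadjusted p under 0.05 in either direction. The shares called higher and lower were 10.8% and 13.2% against NSF, 9.67% and 13.3% against TAF-el4, and 6.63% and 7.65% against TAF-tib48. The part of other cells in the interferon-stimulated genes was not tested.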

How the data were processed

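The deposited scanner files hold spot intensities of each dye, per the file headers, and a log10 ratio computed by Agilent Feature Extraction 8.5.1.1, per the submitters' processing notes. The authors' table holds log2 ratios of Cy5 over Cy3 that follow the scanner ratio. Here intensities were background-corrected (normexp, offset 50) and loess-normalised in limma 3.58.1 under R 4.3.3. Control and outlier spots were left out. Genes were kept where at least 1 source had Cy5 well above background on its 3 arrays. All 15 arrays entered 1 fit (lmFit, eBayes) with a mean per source, and 10 pairs of sources were compared, two-sided, with Benjamini-Hochberg adjustment over all 31262 genes. Resistant and sensitive sources were compared on 5 source means. Of these steps, only the limma comparison of TAF-tib42 with TAF-tib6 was tried on simulated data, with independent noise per gene and array. Normalisation, filter, probe choice and the comparison of source means were not simulated. The members and lists were chosen with earlier results of these data known, and every member could be named; of each other pathway list the up to 4 called genes with the largest difference between TAF-tib42 and TAF-tib6 were named, and of the markers all called macrophage and dendritic cell genes, with Dcn chosen after its value was seen. Alternatives covered normalisation, background, filter, probe choice, slide run, replicate block and left-out arrays. One item of the receptor and JAK-STAT list is not reported here, so no count is given for that list.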

Additional observations from a re-analysis of the deposited data

How the results depend on the processing

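In the comparisons of TAF-tib42 the number of calls stayed within 1.5 times that reported under all alternatives run, while the median difference moved. Against NSF it was 0.69 with Cy5 alone, 1.03 with the authors' table and with the scanner ratio, 0.66 with the mean of probes, 0.71 with median centring, 0.78 without background subtraction and 1.04 with the slide run as a block; the cause was not tested. Against TAF-el4 it was 1.42 with the authors' table and the scanner ratio, and 1.17 both with the slide block and within run 2. Against TAF-tib48 it was 1.06 with the authors' table and the scanner ratio and 0.74 with the mean of probes, and against TAF-tib6 1.17 with those tables and 0.96 with the slide block. Leaving out 1 array gave medians of 0.77 to 0.84 (NSF), 0.98 to 1.08 (TAF-el4), 0.76 to 0.97 (TAF-tib48) and 0.80 to 0.88 (TAF-tib6), and 26 to 28, 29 to 32, 27 to 29 and 28 to 30 calls.

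Comparisons with few or small changes depended more on the processing. For TAF-el4 against TAF-tib48, 19 calls became 4 with Cy5 alone, 10 with median centring and 11 with the slide block; for TAF-el4 against TAF-tib6, 9 became 1 with the slide block; for TAF-tib48 against NSF, 10 became 2 with the slide block; and for TAF-tib6 against NSF, 6 became 14 with median centring and 0 with the slide block. Leaving out 1 array gave 18 to 24 calls for TAF-el4 against NSF, 9 to 20 against TAF-tib48, 6 to 11 against TAF-tib6, 8 to 12 for TAF-tib48 against NSF, 7 to 12 against TAF-tib6, and 4 to 5 for TAF-tib6 against NSF. For resistant against sensitive sources the random source block, which counts single arrays, gave 1 call and leaving out a source gave 0. With the longer motif 10 members in place of 17 held a match. With Cy5 alone, 3 single-gene values that had a call in the main fit or in the alternative changed sign. They were Gbp2 in TAF-tib42 against NSF (0.37), Ifi35 in TAF-tib48 against NSF (-0.0023) and Oas3 in TAF-tib42 against TAF-tib6 (-0.36). Of all single-gene values under alternatives, 6611 kept their side of the threshold, 284 lost a call and 121 gained one. The 6611 include values called in neither fit, whose direction may have changed.

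Replicate numbers did not pair the arrays: same-numbered arrays of different sources deviated with correlations of -0.19 to 0.17, and 2 of 15 arrays matched their own number best. With the replicate block the calls were 30 for TAF-tib42 against TAF-tib6, 28 against NSF, 31 against TAF-el4 and 29 against TAF-tib48, and no count moved by over 1.5 times. Dim probes such as those of Oas1g and Ifnb1 lie near background, and their differences are poorly measured.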

Other observations

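The promoter motif was also counted outside the list, in a comparison chosen after the values were seen and described without a test. Of 13072 tested genes with a window and outside the 39, 3.95% held the response element core. Among those called and at least 2-fold higher in TAF-tib42, the core stood in 8 of 39 genes (20.5%) against TAF-tib6, 8 of 43 (18.6%) against TAF-tib48, 7 of 47 (14.9%) against TAF-el4 and 3 of 19 (15.8%) against NSF. The 3 of the last count were Irgm2, Trim30a and Trim30d, which also stood in the other 3. Irgm2, Trim30a and others in these counts belong to the other interferon-induced genes described above, which were not left out. The shares outside the 39 thus partly count the same class of gene. Among genes at least 2-fold lower in TAF-tib42 the share was 4.21%, 6.98%, 4.49% and 5.98% in the same order.

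When genes were ranked by the difference of TAF-tib42 from the mean of the 4 other sources, again chosen after seeing the values, 13 of the 37 members stood among the first 50 genes. Places 1 and 2 (2.54 and 2.26), above every member, were held by transcripts without a symbol in the reference table. The others of the first 50 included the histocompatibility gene H2-D1 (1.53), the neutrophil chemokine Cxcl5 (1.92) and the endosomal GTPase gene Rab7b (1.60). Cxcl5 was only 0.29 above the source nearest to TAF-tib42.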
